A study of Homo sapiens with 32 samples.

Results

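The regions described here are windows of open chromatin at gene promoters, each reaching 200 bases to either side of its centre, that had fewer ATAC-seq counts when the transcription factor ZNF143 was targeted for degradation. HEK293T cells, an established line from human embryonic kidney, were used as 1 clone (ZD29) whose ZNF143 is fused to an inducible degron tag. All libraries, controls included, come from this clone. Control cells received DMSO. Treated cells received 50 nM dTAGV-1, a degrader that brings the tagged protein to a ubiquitin ligase, for 30 minutes. A window is a member when edgeR called it lower in dTAGV-1 over 6 control and 6 treated libraries (replicates 9, 10, 13, 14, 15 and 16), at a Benjamini-Hochberg adjusted p below 0.05, and its centre lay within 500 bp of a GENCODE transcript start. There were 515 members among 212358 windows in all, 186568 windows tested and 38183 promoter windows tested. The share of promoter windows called lower was 1.35%, and over all tested windows it was 0.411%. The members were thus selected on the fold change and p-value in these 12 libraries, which are given below as a description, without a test.

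ZNF143 is a zinc finger protein that binds a long site in the promoters of many genes, often together with the proteins THAP11 and HCFC1, and it is known as an activator of small nuclear RNA genes and of many housekeeping genes. In ATAC-seq the transposase Tn5 cuts DNA that is free of nucleosomes, so the count in a window reports how open the DNA is there. Accessibility is not transcription, and no RNA was measured in these files. The amount of ZNF143 protein left in each library was not analysed here.

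Replicates 11 and 12 of both groups, 4 libraries in all, took no part in choosing the members and give a further measure of the same windows. They are the shallower libraries, with 2275856 to 6742589 counts against 7935807 to 13671039 in the 12 others. Their signal was also flatter, with 31.8% to 45.8% of counts in the strongest 10% of windows against 48.1% to 49.6%. Replicates 1 to 8 are represented by a list of peak summits with no value per library. A summit of that list fell in 496 of the 515 members, or 96.3%, and in 72.9% of the other promoter windows. Nothing in the labels says whether replicates are separate cultures, so the spread between libraries may be technical. Of markers of the kidney lineage, starts of PAX2 and WT1 held tested windows (4 and 2) and those of LHX1 and PAX8 held none. The starts of ALB, CD3E and PTPRC, markers of liver and blood cells, held none, while CDH5, MYOD1 and GFAP held 2, 1 and 1.

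A sequence found exactly within 100 bp of the centre of 49.1% of members, and with up to 1 letter different in 81.7%, is shown here before the values. Its 2 parts are ACTACA and, after any 3 bases, CCCA, searched on both strands, and it is called the 2-part site below. This definition was chosen after the windows had been seen. The following 8 members had the smallest p-values among those in which the 2-part site continues into the core fixed for the search, CCCANAATG or CCCANCATG. Capitals mark the 2 parts of the site, and each sequence of 30 bases reads 5′ to 3′ on the strand of the site, in hg38.
SMIM13 (chr6:11093689-11093718, minus strand): cagggACTACAactCCCAgaatgcaccgcc
UBR2 (chr6:42563872-42563901, plus strand): aatggACTACAactCCCAcaatgcattcga
ACADVL/DLG4 (chr17:7219827-7219856, plus strand): agggaACTACAgctCCCAgcatgccccggg
CFAP95 (chr9:69820671-69820700, minus strand): aagaaACTACAtttCCCAgaatgcagtgag
RAB30 (chr11:83072024-83072053, plus strand): ccgaaACTACAatgCCCAaaatgctccaag
ASB3/CHAC2 (chr2:53767561-53767590, minus strand): agaaaACTACAataCCCAcaatgctttttg
IZUMO1 (chr19:48747228-48747257, plus strand): ctaagACTACAactCCCAaaatgccctggg
CLHC1/RPS27A (chr2:55232346-55232375, plus strand): ggagaACTACAgttCCCAgaatgcacttcc

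Of the 10 members with the smallest p-values, 6 are printed for comparison, in the same form. Their sites depart from this pattern, either after CCCA or by 1 letter within the site. MEN1, AUP1/HTRA2 and GSK3A, also among the 10, have no site of either kind within 100 bp of the window centre. The MEN1 window holds 2 sites with up to 1 letter different further out, and the AUP1/HTRA2 and GSK3A windows hold none. Positions are counted from 1 at the first base of ACTACA, and a letter change names the base of the site, its position and the base found.
HDGF/PRCC (chr1:156767276-156767305, minus strand): aggtgACTACAagcCCCAccggtcaccacg
SLC35B4 (chr7:134316989-134317018, plus strand): gccagACTACAtgtCCCAggatgccgtgca
USP5 (chr12:6852385-6852414, minus strand): gggagACTACAagtCCCAtggtgcatcgca
CCDC163/MMACHC (chr1:45500172-45500201, plus strand, A6G): aacgaACTACGcatCCCAagatgcatcgcg
IFRD2 (chr3:50292546-50292575, minus strand, A6C): cgtggACTACCattCCCAtggtgctctacg
ZBTB8B (chr1:32464874-32464903, plus strand, T3C): ctgagACCACAactCCCAtcaccctgcgag

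Promoters of 2 members with 1 protein-coding gene show the site in its place. Each is the 250 bases just upstream of the canonical start, 5′ to 3′ on the strand of the gene, in hg38, with no annotated exon inside. Capitals mark the exact 2-part site, which here lies on the other strand. The SLC35B4 stretch also holds a site with 1 letter different, on the strand of the gene and left in lower case. ACP6 lay outside the rule for named windows and was chosen for its sequence after its values were seen.
SLC35B4 (chr7:134316931-134317180, minus strand): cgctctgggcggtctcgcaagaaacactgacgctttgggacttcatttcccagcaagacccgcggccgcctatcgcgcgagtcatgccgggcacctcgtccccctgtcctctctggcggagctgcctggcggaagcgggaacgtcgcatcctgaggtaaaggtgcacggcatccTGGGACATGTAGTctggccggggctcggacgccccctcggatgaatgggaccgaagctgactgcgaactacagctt
ACP6 (chr1:147670525-147670774, minus strand): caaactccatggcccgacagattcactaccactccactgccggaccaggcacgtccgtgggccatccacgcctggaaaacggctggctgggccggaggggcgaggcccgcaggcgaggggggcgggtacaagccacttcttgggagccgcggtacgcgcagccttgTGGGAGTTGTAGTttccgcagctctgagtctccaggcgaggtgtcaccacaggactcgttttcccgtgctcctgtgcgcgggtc
The centre of the site in capitals lay at -70 bp from the SLC35B4 start and at -78 bp from the ACP6 start.

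Log2 fold changes of the members spanned -2.26 to -0.22, around a median of -0.58 (quartiles -0.79 and -0.43). The median corresponds to 66.7% of the control signal left after 30 minutes. In 59 members the log2 fold change was below -1. Standard errors lay between 0.047 and 0.33. In 438 members, or 85.0%, each of the 6 treated libraries had a lower value than any control library, against 0.452% of all tested windows. Since the same libraries chose the members, this is no support. The members merged into 505 regions that did not overlap one another.

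Members were stronger windows than other promoters. Their median level was 4.55 log2 CPM (counts scaled to library size), against 3.01 in the 37668 other promoter windows, with a median GC content of 62.3% against 62.8%. Calls were more frequent at higher levels. Of promoter windows in the range of level of the 129 weakest members 0.517% were members, and in that of the 129 strongest 5.65% were. Median log2 fold changes were -0.77 in the 129 weakest and -0.40 in the 129 strongest. The rule itself shapes this order, since a weak window needs a larger fall to be called. Median standard errors were 0.13 and 0.068, and the smallest falls were -0.43 and -0.22. Promoter windows with an exact 2-part site, members or not, had a median of -0.53 in the lowest range of level. In the other ranges their medians were -0.27, -0.29 and -0.28.

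**Figure D1:**
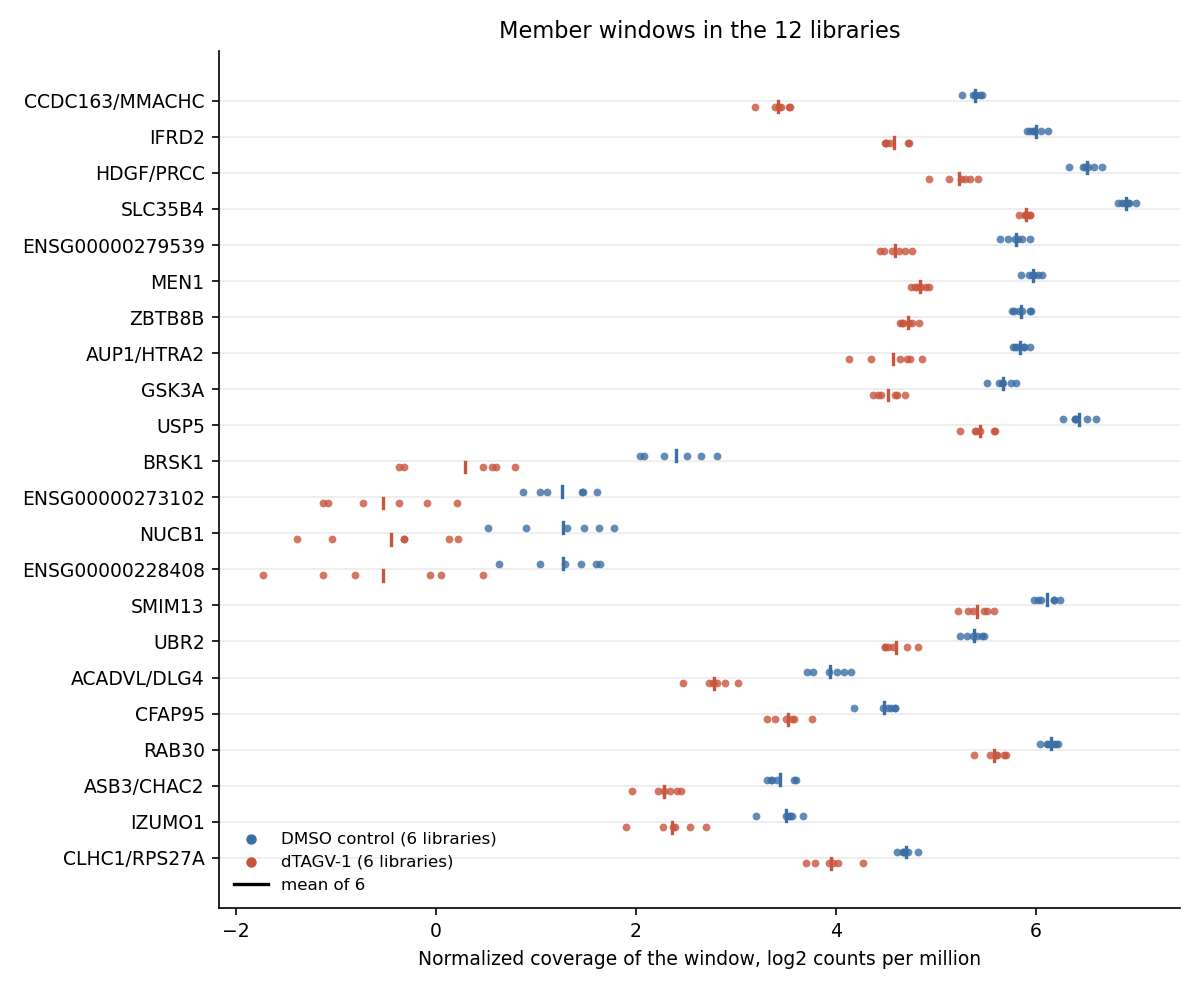
Normalized coverage (x axis, log2 CPM) of 22 member windows (rows) in 6 DMSO control libraries (blue points) and 6 dTAGV-1 libraries (red points), with a vertical bar at each mean of 6. The groups do not overlap in any row; the change spans about 2 log2 units in the CCDC163/MMACHC window and 0.56 in the RAB30 window.

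The member with the smallest p-value lay between CCDC163 and MMACHC, the latter a gene for the handling of vitamin B12 in the cell. This window (chr1:45499959-45500359, centre between genes) ran from 5.26 over a median of 5.40 to 5.46 log2 CPM in control and from 3.19 over 3.44 to 3.54 in dTAGV-1. The groups were separated by more than the whole range of either. Its log2 fold change was -1.97 ± 0.087 (SE, n = 6 per group), leaving 25.5% of the control signal. In the replicates that did not choose it, it measured 5.76 and 5.00 log2 CPM in control 11 and 12 and 3.97 and 2.86 in dTAGV-1 11 and 12, a log2 fold change of -1.95 ± 0.49 (SE, n = 2 per group).

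IFRD2, which encodes a factor that binds idle ribosomes, had the next smallest p-value. Its window (chr3:50292336-50292736, centre in an untranslated region) ran from 5.91 over 5.98 to 6.12 log2 CPM in control and from 4.49 over 4.52 to 4.73 in dTAGV-1. That is a log2 fold change of -1.42 ± 0.072 (SE, n = 6 per group), and -0.78 in replicates 11 and 12. The HDGF/PRCC window (chr1:156767160-156767560, intronic) ran from 6.33 over 6.51 to 6.66 log2 CPM in control and from 4.94 over 5.27 to 5.42 in dTAGV-1. HDGF is a secreted growth factor, and PRCC is a gene named for its fusion in papillary renal cell carcinoma. The change was -1.28 ± 0.068 on the log2 scale, and -1.10 in replicates 11 and 12.

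SLC35B4, a transporter of nucleotide sugars into the Golgi, was the strongest of these windows in control. Its window (chr7:134316833-134317233, between genes) ran from 6.82 over 6.91 to 7.0 log2 CPM in control and from 5.83 over 5.90 to 5.94 in dTAGV-1. The spread between libraries was small beside the gap, at an SD of 0.039 in dTAGV-1 (n = 6). The log2 fold change was -1.01 ± 0.058 (SE), so that 49.8% of the control signal was left.

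On chromosome 19, adjacent windows fell together at the start of GSK3A, a protein kinase known from glycogen metabolism and Wnt signalling. The window at its start (chr19:42242615-42243015, in a noncoding exon) ran from 5.51 over 5.67 to 5.80 log2 CPM in control and from 4.37 over 4.52 to 4.69 in dTAGV-1. The next window (chr19:42243016-42243416), named here by the gene ENSG00000279539, ran from 5.65 over 5.81 to 5.94 in control and from 4.44 over 4.60 to 4.76 in dTAGV-1. Their log2 fold changes were -1.15 and -1.22. A site with 1 letter different (A4C) lay in the upper window, and no such site lay within 100 bp of the centre of the window at the GSK3A start.

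The other 4 windows of this set belong to MEN1 (menin, a tumour suppressor of endocrine tissue), ZBTB8B (a zinc finger gene), AUP1/HTRA2 (a protein of lipid droplets and a mitochondrial protease) and USP5 (a deubiquitinase). The MEN1 window fell from a median of 5.97 to 4.83 log2 CPM and the ZBTB8B window from 5.85 to 4.70. Medians went from 5.85 to 4.68 at AUP1/HTRA2 and from 6.40 to 5.42 at USP5. In each of these, every treated library lay below every control library. Replicates 11 and 12 gave log2 fold changes of -0.77, -0.72, -0.66 and -0.70 in the same order. At USP5 the coverage of dTAGV-1 replicate 12 was 5.59 log2 CPM beside 5.80 in control replicate 12, a much smaller gap than in replicate 11 (5.44 beside 6.51).

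The largest fold changes belonged to weak windows, where a call needs a larger fall, apart from that at CCDC163/MMACHC. BRSK1, a kinase gene known from neurons, ran from 2.04 over 2.4 to 2.81 log2 CPM in control and from -0.37 over 0.52 to 0.79 in dTAGV-1. Its change was -2.26 ± 0.23 on the log2 scale (SE, n = 6 per group), and -0.78 in replicates 11 and 12. The windows at NUCB1, a calcium-binding protein of the Golgi, and at the genes ENSG00000273102 and ENSG00000228408 had control medians of 1.28 to 1.40 log2 CPM and standard errors of 0.32 to 0.33. NUCB1 changed by -1.96 in the 12 libraries and by -0.17 in replicates 11 and 12, where dTAGV-1 replicate 12 (2.64 log2 CPM) lay above control replicate 12 (2.41). Its edgeR adjusted p with all 16 libraries was 0.106.

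The 5 members of the highest level, where smaller falls can be called, had log2 fold changes smaller than the median of all members. TLE4, a corepressor, had the highest level, and its window ran from 7.82 over 7.92 to 7.95 log2 CPM in control and from 7.50 over 7.59 to 7.66 in dTAGV-1. That is a log2 fold change of -0.31 ± 0.047 (SE), or 80.5% of the control signal left. DESI2, VCPIP1, EDEM3 and ABCF2, the other members of high level, had log2 fold changes of -0.38, -0.31, -0.24 and -0.23. Groups overlapped at EDEM3, where 4 of 6 treated libraries were lower than all controls. The calls at EDEM3 and ABCF2 also depended on single libraries: without dTAGV-1 replicate 14 the edgeR adjusted p was 0.215 and 0.0886. DESeq2 gave EDEM3 an adjusted p of 0.0518. With all 16 libraries none of these 5 was called by edgeR, at an adjusted p of 1.0 each, and their log2 fold changes lay between -0.38 and -0.22.

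Members nearest the threshold were SWT1/TRMT1L, RPS26 and DHX30, with edgeR adjusted p-values of 0.0446, 0.0449 and 0.0463 and log2 fold changes of -0.22, -0.27 and -0.35. The nearest promoter windows outside it were ANGEL2, DPYSL5 and ZNF331, with adjusted p-values of 0.0501, 0.0509 and 0.0532 and log2 fold changes of -0.31, -0.45 and -0.46. At RPS26 only 2 of 6 treated libraries lay below the lowest control library, whereas at ANGEL2 and ZNF331 all 6 did. The list of members therefore ends among windows with like changes. With all 16 libraries SWT1/TRMT1L, RPS26 and DHX30 were not called by edgeR, at an adjusted p of 1.0 each.

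The 8 members with the core and ACTACA, whose sites are printed above, ranged in log2 fold change from -0.56 at RAB30 to -1.18 at ACADVL/DLG4. RAB30 encodes a small GTPase of the Golgi. Its window ran from 6.04 over 6.15 to 6.23 log2 CPM in control and from 5.38 over 5.61 to 5.70 in dTAGV-1. The ACADVL/DLG4 window serves an enzyme of mitochondrial fatty acid oxidation and the synaptic scaffold PSD-95. It ran from 3.71 over 3.97 to 4.15 log2 CPM in control and from 2.48 over 2.79 to 3.02 in dTAGV-1. Among the 12 libraries that chose the members, no library of either group crossed into the other in any of the 8 windows. UBR2, a ubiquitin ligase of the N-degron pathway, had a log2 fold change of -0.78, and SMIM13 one of -0.69. CFAP95 changed by -0.99, ASB3/CHAC2 by -1.18, IZUMO1 (a sperm protein of egg fusion) by -1.15 and CLHC1/RPS27A by -0.74. In replicates 11 and 12 the 8 log2 fold changes lay between -0.93 (CFAP95) and -0.11 (ASB3/CHAC2), all negative, with standard errors of 0.43 to 0.48. Single libraries did cross there. dTAGV-1 replicate 12 lay above control replicate 12 at ACADVL/DLG4 (3.49 against 2.75 log2 CPM), ASB3/CHAC2 (3.31 against 2.85) and CLHC1/RPS27A (4.39 against 3.79). It lay below that control at the rest of the 8. RAB30 was not called by edgeR with all 16 libraries (adjusted p 0.492).

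The window nearest the canonical start of ZNF143 itself was no member. It measured 6.13 log2 CPM as a median in control and 6.04 in dTAGV-1, a log2 fold change of -0.04 ± 0.063 (SE). Of the 11 tested windows at ZNF143, its paralogue ZNF76, THAP11 and HCFC1, none was called lower. None was lower at an unadjusted edgeR p under 0.05 or by DESeq2. So few windows can hold none at the 1.35% of all promoter windows called lower.

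Promoter windows called higher numbered 8, and 5 of these had a member centred within 1000 bp. The share of all promoter windows with a member as near was not counted. The 8 higher windows were named after their values were seen. A window beside the IFRD2 member (chr3:50292789-50293189), centred 453 bp from it, ran from 1.6 over 2.17 to 2.53 log2 CPM in control and from 2.70 over 2.77 to 3.14 in dTAGV-1, a log2 fold change of 0.71 ± 0.16 (SE). TMEM245 and BOD1 had such pairs at 447 and 697 bp, with log2 fold changes of 0.56 and 0.42 in the higher windows. The higher windows at TMEM150A and CALCOCO1, 661 and 559 bp from a member, had log2 fold changes of 0.77 and 0.68. In replicates 11 and 12 the IFRD2 and TMEM245 windows measured -0.10 and -0.11, BOD1 0.08, TMEM150A 1.15 and CALCOCO1 1.48. Of all 8 higher windows, 5 were positive there and 3 (37.5%) negative, where 45.4% of other promoter windows were negative. The CENPT/THAP11 window, at the start of the ZNF143 cofactor THAP11, was called higher without a member nearby. It ran from 4.03 over 4.18 to 4.44 log2 CPM in control and from 4.61 over 4.62 to 4.71 in dTAGV-1, a log2 fold change of 0.44 ± 0.089 (SE), and 0.37 in replicates 11 and 12.

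The replicates that did not choose the members were then examined for the members as a whole. Of 515 members, 513 passed the filter on low counts in replicates 11 and 12. Their median log2 fold change there was -0.43, with quartiles of -0.68 and -0.25, against 0.03 in 34320 other promoter windows and 0.01 over all windows tested in both fits. It was negative in 490 of the 513, or 95.5%, while 45.4% of the other promoter windows and 49.2% of all windows were negative. No window of 135208 passed an adjusted p of 0.05 in these 4 libraries by edgeR (0% called, 2260 at an unadjusted p under 0.05), and so no member did. At an unadjusted p under 0.05, 47 members were lower and none was higher, where 0.861% of all tested windows and 0.516% of promoter windows were lower.

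These replicates differed from each other. In replicate 11 alone the members' median difference was -0.64 (1 library per group, no test), and 508 of 513 were negative. In replicate 12 alone it was -0.07, with 288 negative. Promoters as a whole were shifted in replicate 12, with a median of 0.26 in the other promoter windows against -0.09 in replicate 11. Less that shift, the members' medians were -0.55 in replicate 11 and -0.33 in replicate 12, with 501 and 400 of 513 below the other promoters' median. That shift was not matched for level, and it differed with level. Other promoter windows at the level of the 129 weakest members had medians of -0.02 in replicate 11 and 0.12 in replicate 12. At the level of the 129 strongest the medians were -0.24 and 0.45. The members themselves measured -0.64 and -0.30 among the weakest, and -0.59 and 0.10 among the strongest. Control replicate 12, the flattest library, is the control of the replicate 12 pair, and its part in the shift was not tested.

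**Figure D2:**
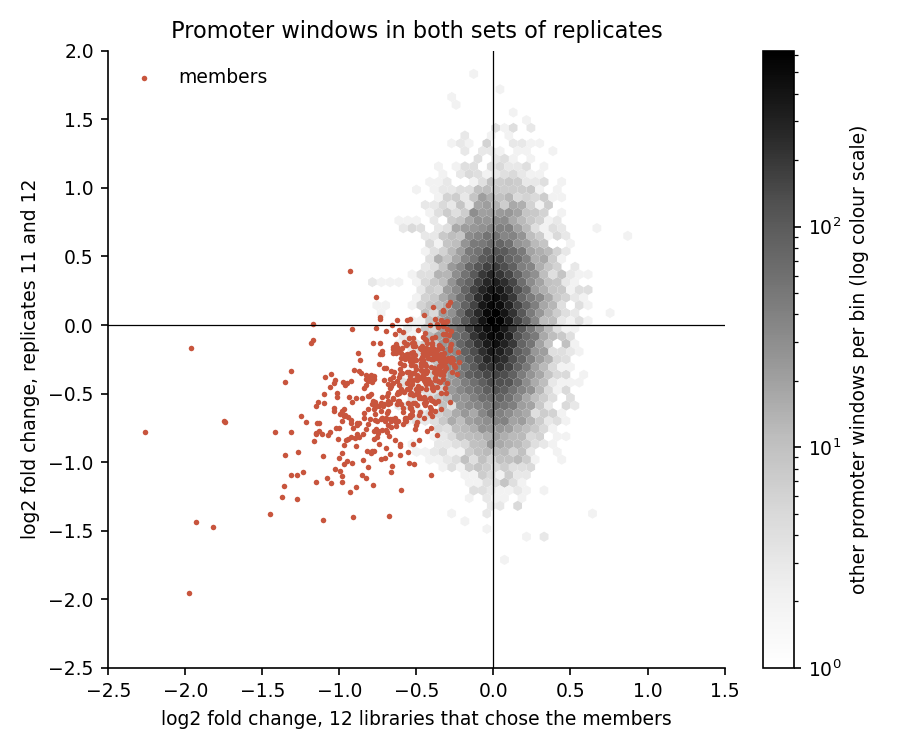
Log2 fold change of promoter windows in the 12 libraries that chose the members (x axis) and in replicates 11 and 12 (y axis). Members are red points and other promoter windows are grey bins with a log colour scale; 490 of 513 members lie below 0 on the y axis, while the other promoter windows are spread about evenly above and below it.

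Most members held the 2-part site or a close form of it. The exact site had its centre within 100 bp of the window centre in 253 of 515 members, or 49.1%, against 0.781% of other promoter windows. The 252 distal windows called lower held it in 78.6%. When 1 of the 10 fixed letters could differ, the shares were 81.7% of members, 2.44% of other promoter windows and 88.1% of distal lower windows. ACTACA alone was near the centre of 65.0% of members and 4.98% of other promoter windows.

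The core fixed for the search (CCCANAATG or CCCANCATG) was less frequent. It was found in 71 members, or 13.8% (95% exact binomial interval 10.9% to 17.1%, counting error only), and in 1.44% of other promoter windows. The bases after CCCA varied in the members' sites. Over 293 sites, position 16 was A in 65.9% and G in 24.6%, and position 17 was T in 41.0% and G in 39.6%. Within the 3 free bases, position 9 was T in 80.2%. Position 14 was G in 73.0%, and position 19 was C in 86.3%.

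These letters had like shares in other promoter windows with a site, and among them T of position 17 had the widest gap. Beyond these letters, position 20 was C in 43.7% of members' sites and 51.8% of the others. In 311 sites of promoter windows that were no members, position 9 was T in 81.4%, position 14 was G in 72.3% and position 19 was C in 84.9%. Position 16 was A in 71.4% and G in 23.5%, and position 17 was T in 33.4% and G in 44.7%. Among promoter windows with 1 exact site, those with T at position 9 had a median log2 fold change of -0.26 in replicates 11 and 12 (409 windows), and those with another base -0.26 as well (80 windows). With C at position 19 the median was -0.27 (411 windows), and -0.22 without it (78 windows). With T at position 17, 50.5% of windows were members and the median in replicates 11 and 12 was -0.32 (181 windows), against 39.8% and -0.22 (308 windows) with another base. With G there, 38.6% were members and the median was -0.20, against 47.4% and -0.31 with another base. Position 17 was singled out from largely the same windows, so these shares of members largely restate its gap, and the splits by T and by G overlap. The differences were not tested.

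In members with a site of 1 different letter and no exact one, the differing letter was unevenly spread over the site. It was counted in members only, so no share of other promoter windows stands beside these values. Of 222 such sites, 28.8% differed at position 13 (the A of CCCA), 23% at position 4 and 19.8% at position 6. Only 0.901% differed at position 11 and 1.35% at position 12. The sites printed above for CCDC163/MMACHC and IFRD2 both differ at position 6.

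Motifs of 7 other promoter factors had shares in members from under to above those in other promoters. They were searched within 100 bp of the centre on both strands. The NFY motif CCAAT was found in 23.3% of members and 21.4% of other promoter windows, and the E-box CACGTG in 6.02% and 5.37%. The NRF1 motif GCGCATGCG had 1.17% and 1.39%, and the CRE motif TGACGTCA 0.971% and 1.29%. The SP and KLF motif GGGGCGGGG was found in 7.77% of members and 14.4% of other promoters. The other 2 motifs had larger shares in members, at 5.63% against 2.90% for the ETS motif CCGGAAGT and 2.14% against 1.16% for the YY1 motif AAGATGGCG. In the distal lower windows NFY was found in 52.4%, ETS in 0.794%, SP and KLF in 1.59% and YY1 in 0.397%. These shares describe windows, which are not replicates, and no test was made.

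**Figure D3:**
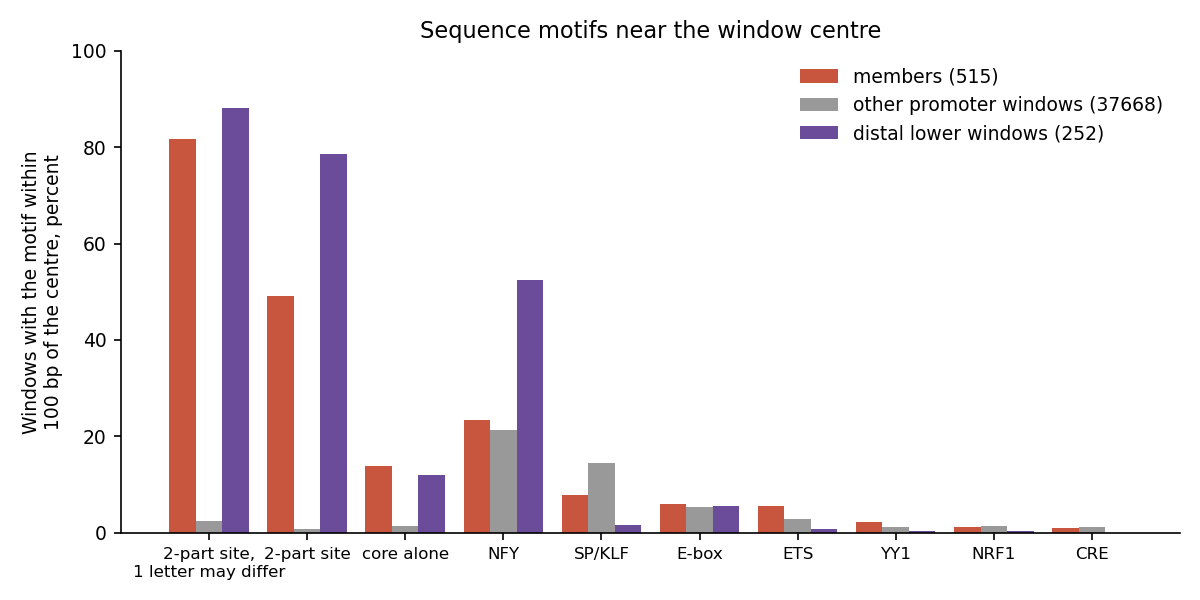
Share of windows (y axis, percent) with each motif within 100 bp of the centre, for members (red), other promoter windows (grey) and distal windows called lower (purple). The 2-part site stands at 49.1% in members and 0.781% in other promoter windows, while NFY, E-box, NRF1 and CRE stand at like heights in both.

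Looked at from the sequence, about as many promoter windows with an exact site were members as were not. Of 547 such windows, 253 were members, or 46.3%. The other 294 had a median log2 fold change of -0.16 in the 12 libraries and -0.11 in replicates 11 and 12, where 67.5% were negative. With a site of 1 different letter, 168 of 793 promoter windows were members, or 21.2%. Without either, 94 of 36843 were, or 0.255%.

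A window with more sites changed more often and further. With 1 site (exact or with 1 letter different) 24.3% of 1122 promoter windows were members, with 2 sites 65.4% of 191, and with 3 sites 84.0% of 25. Medians in replicates 11 and 12 were -0.14, -0.34 and -0.55 in this order, against 0.03 without a site. The share negative there was 66.7%, 91.5% and 96.0%. Levels differed too, with a median of 3.87 log2 CPM for windows with 1 site, 4.67 for 2 and 4.96 for 3, and their part in these shares was not tested. Exact sites and sites with 1 different letter were counted alike. Yet 253 of 547 promoter windows with an exact site were members, against 168 of 793 with only the other kind. The part of this difference in the trend with number was not tested either. Of the members, 273 had 1 site, 125 had 2 and 23 had 3 or more (21 and 2).

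Distal windows with an exact site changed more than promoter windows with one. There were 412 of them, of which 48.1% were called lower. Their median log2 fold change was -0.78 in the 12 libraries and -0.54 in replicates 11 and 12, against -0.33 and -0.28 in the 547 promoter windows. The distal windows were weaker, with a median level of 1.53 log2 CPM against 4.39. For windows with 1 different letter the order was the other way, as 0.946% of 2538 distal windows were called lower and 21.2% of promoter windows. Here too the distal windows were weaker, with a median level of 1.06 log2 CPM against 3.67. Of windows without either kind of site, 0.0206% of distal and 0.255% of promoter windows were called lower. The distal median for windows with 1 different letter was -0.01 in replicates 11 and 12, against -0.12 at promoters.

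The remaining 94 members had neither an exact site nor one with 1 different letter within 100 bp of the centre. In 29 of them such a site lay elsewhere in the window, and in 65 there was none. MEN1, AUP1/HTRA2, GSK3A, EDEM3 and VCPIP1 are among the 94. Of these named windows, only MEN1 (2 sites) and EDEM3 (1 site) hold such a site elsewhere in the window. The median log2 fold change of the 94, -0.50, was a little smaller than the -0.62 of members with the exact site. In replicates 11 and 12 it was -0.39 against -0.46. Of the 65 with no site in the window, 61 were negative in replicates 11 and 12.

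Sites lay just upstream of genes. Of 253 members with an exact site, 214 had it within 500 bp of a canonical coding start. Of these, 189 were upstream, with a median offset of -80.5 bp over all 214 and quartiles of -136 and -42.5 bp. Between 150 bp upstream and the start lay 142 sites, or 66.4%. The first 100 bp downstream of a start held only 2. The site lay on the strand of the gene in 112 and on the other strand in 102. Promoter windows with a site that were no members had a like median offset, -88.5 bp over 256 sites, but 172 on the strand of the gene and 84 on the other.

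**Figure D4:**
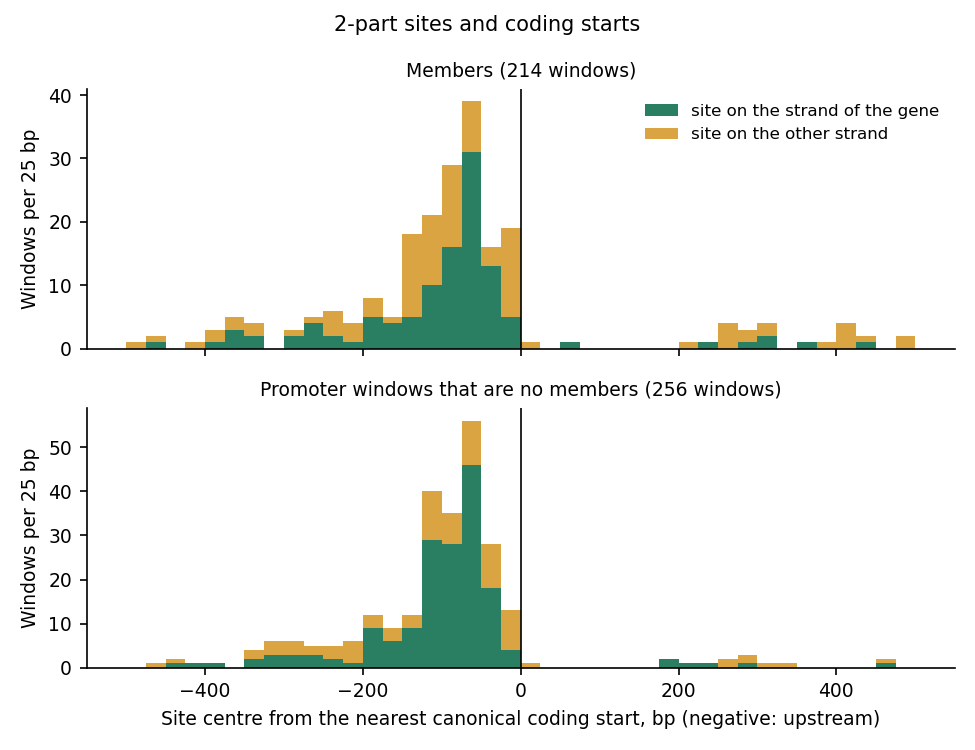
Number of windows per 25 bp (y axis) by the distance of the 2-part site from the nearest canonical coding start (x axis, negative values upstream), for members (top) and promoter windows that are no members (bottom), stacked by strand. In both, most sites lie in the 150 bp upstream of the start, and few lie in the first 100 bp after it.

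The change was largest in windows centred near a site. Promoter sites were taken by sequence alone, 1038 exact sites within 500 bp of a transcript start, of which 605 had a tested window with its centre within 100 bp. Windows centred within 50 bp of a site had a median log2 fold change of -0.36 (395 windows), of which 48.9% were called lower. At 101 to 150 bp the median was -0.26 (52 windows), at 151 to 200 bp -0.12 (30 windows) and at 301 to 500 bp -0.04 (267 windows). In replicates 11 and 12 the medians were -0.29, -0.24, -0.07 and -0.0014 at the same distances. Beyond 500 bp, up to 1000 bp, 1.70% of 352 windows were called lower.

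**Figure D5:**
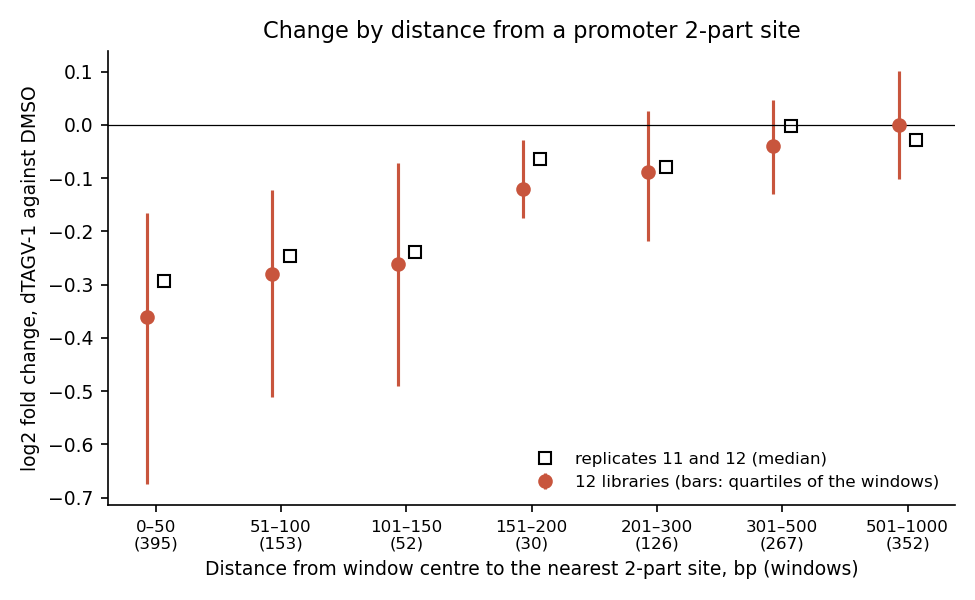
Log2 fold change (y axis) of windows by the distance of their centre from the nearest 2-part site at a promoter (x axis, bp, with the number of windows). Red points are medians in the 12 libraries with quartiles of the windows as bars, and squares are medians in replicates 11 and 12; both rise towards 0 from 150 bp on.

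The genes served by these windows were counted next. Of the members, 493 had a protein-coding gene starting within 500 bp and 22 only noncoding genes. They covered 588 protein-coding genes of 14694 with a tested promoter window, or 4.0%. At the window centre the annotation was between genes in 220, an intron in 124, an untranslated region in 117, a noncoding exon in 52 and a coding exon in 2. More members than other promoter windows lay between coding genes on opposite strands, 87 or 16.9% against 6.25%. Members were also nearer to a start, at a median of 52 bp against 99 bp.

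Zinc finger genes were the most numerous group. Of 433 genes named ZNF with a number and a tested promoter window, 62 had a member, or 14.3%. They also held the exact site more often, in 84 genes or 19.4%, against 614 of 14694 coding genes or 4.18%. Among genes with an exact site, 44% of the zinc finger genes and 48.0% of all coding genes had a member. Of the 61 member windows of this group, 57 were negative in replicates 11 and 12.

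Many zinc finger genes are known to stand in clusters on chromosome 19, where 35 of the 62 lay, beside 201 of all 433 tested. Chromosome 19 held 84 members, 3.96% of its promoter windows. Its windows with a zinc finger gene were members in 10.3% (35 of 340), and its other promoter windows in 2.75% (49 of 1781). ZNF169 on chromosome 9 had the smallest p-value of the group. Its window ran from 4.31 over 4.52 to 4.62 log2 CPM in control and from 2.82 over 3.19 to 3.46 in dTAGV-1, a log2 fold change of -1.32 ± 0.11 (SE). ZNF527 on chromosome 19 changed by -1.06 and ZNF140 on chromosome 12 by -0.78. ZNF140 has 3 sites of 1 different letter and no exact one. The genes of these clusters are close copies of each other in their coding parts, and how reads that map to several places were treated is not given in the sources used here.

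Mitochondrial genes were present at shares near that of all genes. Of 75 genes of the mitochondrial ribosome, 5 had a member (6.67%), namely MRPL24, MRPL48, MRPL50, MRPL54 and MRPS26. MRPS26 ran from 4.46 over 4.63 to 4.82 log2 CPM in control and from 3.86 over 4.09 to 4.26 in dTAGV-1, a log2 fold change of -0.57 ± 0.091 (SE). MRPL50 shares its window with ZNF189 and changed by -0.44, and MRPL24 by -0.35. All 5 windows were negative in replicates 11 and 12. Of 80 oxidative phosphorylation genes, 4 had a member (5.0%), with log2 fold changes of -0.70 at ATP5F1D, -0.67 at NDUFA1/RNF113A and -0.45 at NDUFV1, and with NDUFB2 as the other. ATP5F1D is a subunit of ATP synthase, and the NDUF genes encode subunits of complex I. In replicates 11 and 12 NDUFV1 measured -0.06. With all 16 libraries edgeR called neither MRPS26 (adjusted p 0.0881) nor MRPL50/ZNF189, MRPL24 and NDUFV1 (1.0 each). Over all windows of either list the median log2 fold change was -0.01 and -0.02.

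Genes of protein synthesis and turnover were likewise few. LARS1 and MARS1, the cytosolic synthetases for leucine and methionine, were the only 2 of 35 aminoacyl-tRNA synthetase genes with a member (5.71%). LARS1 ran from 6.29 over 6.40 to 6.44 log2 CPM in control and from 5.42 over 5.72 to 5.92 in dTAGV-1, and it holds 3 sites. Its log2 fold change was -0.67 ± 0.064 (SE), and that of MARS1 was -0.66. Cytosolic ribosomal protein genes had a member in 5 of 77 (6.49%), RPL23A, RPL36, RPLP2, RPS26 and RPS27A. RPL36 shares its window with HSD11B1L and MICOS13, with a log2 fold change of -0.92, and RPL23A changed by -0.63. Among proteasome genes 3 of 42 had a member (7.14%). PSMC3 changed by -0.99, PSMD2 by -0.41 and ATG4A/PSMD10 by -0.33, and the last measured 0.02 in replicates 11 and 12. CNOT4, a ubiquitin ligase of the CCR4-NOT complex, was 1 of 11 genes of that list (log2 fold change -0.43), and EIF3D was 1 of 54 initiation factor genes (-0.49 in the 12 libraries and -0.04 in replicates 11 and 12). With all 16 libraries LARS1 had an edgeR adjusted p of 0.165, and PSMD2, ATG4A/PSMD10, CNOT4 and EIF3D had 1.0 each. The call at PSMD2 was also lost without dTAGV-1 replicate 14 (adjusted p 0.0523).

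DNA replication had 1 gene of 43, GINS3, a subunit of the complex that activates the replicative helicase. Its window ran from 3.21 over 3.51 to 3.63 log2 CPM in control and from 0.81 over 2.22 to 2.69 in dTAGV-1, a log2 fold change of -1.31 ± 0.15 (SE), and -1.09 in replicates 11 and 12. None of 13 mitotic kinase and checkpoint genes and none of 9 TRiC chaperonin genes had a member. Lists so short can hold none at the 4.0% of all coding genes. By edgeR, 3 of the 32 windows of the mitotic list and 2 of the 17 of the chaperonin list were lower at an unadjusted p under 0.05. DESeq2 called 0 in both lists. The share of all promoter windows lower at that unadjusted p was not counted in the 12 libraries. Small nuclear and related RNA genes, 1837 noncoding genes listed by symbol, had a member at 1 of the 114 with a tested window (0.877%). Its window is named by the nearest gene, ENSG00000286527, lies within 500 bp of RNU6-7 and changed by -0.68. The lists of coding genes describe counts beside the 4.0% of all coding genes, and nothing more is drawn from them. For the small nuclear list no share over noncoding genes was counted, so its 0.877% of genes has none beside it. By window, 1 of its 172 was a member (0.581%), beside 1.35% of all promoter windows. So few windows can hold 1 at that share.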

How the data were processed

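ATAC-seq libraries of a degron-tagged ZNF143 clone were compared between dTAGV-1 and DMSO. Per the submitters' processing notes, cutadapt 1.8.1, Bowtie2 2.4.4 and SAMtools 1.9 were used, with build hg38. The peak caller, the counting tool, read filters and any Tn5 shift are not given in the sources used here. The authors deposited whole-number counts per window, not normalized, for the 16 libraries of replicates 9 to 16, and a −log10 q value per window from their peak calling. A separate deposited summit list gives a −log10 score. The number of columns left unused was 0.

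Counts of 12 libraries were tested with edgeR 4.0.16 (R 4.3.3): filterByExpr by treatment, TMM scaling, quasi-likelihood test without a covariate, Benjamini-Hochberg adjustment at 0.05. Replicates 11 and 12 were fitted apart in the same way. Log2 CPM used a prior count of 2, with scaling factors of each fit. Standard errors came from the test statistic. DESeq2 1.42.0 was an alternative. The fits were tested on simulated counts. Transcript starts were those of GENCODE release 44, and sequences were read from hg38 with pysam. Intervals are exact binomial at 95% and cover counting error only. Depth per library is in the range given in the report.

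The members and the gene lists were chosen with earlier results of these data known, and the 2-part site was defined after the members were seen. Named windows were the 10 members of smallest p at or above the median level of tested windows, the 5 with the largest fall, the 5 with the highest level, 3 on each side of the threshold, 8 with the core after ACTACA, up to 3 of each gene list, and the window nearest the ZNF143 start. No pair of libraries of a group agreed within sampling noise (chi-square per degree of freedom 1.65 to 5.15 over 56 pairs).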

Additional observations from a re-analysis of the deposited data

Results flagged for a closer look

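A library was noted when its gap to the nearest other library of its group exceeded a share of the group's range (0.625 for 6 libraries, 0.526 for 8), which chance alone gives in about 1 of 20 groups. Of 112 groups, 9 were noted. Replicate 14 accounts for 7 of the 8 at single windows. Control replicate 14 was low at CFAP95 (4.18 against 4.47 log2 CPM in the next library), IZUMO1 (3.20 against 3.50), the RPL36 window (5.25 against 5.59) and EIF3D (5.23 against 5.36). It was also the lowest of the 6 control libraries in 154 of the 515 members, more than any other control library, and a low control value makes a fall smaller. dTAGV-1 replicate 14 was low at DESI2 (6.74 against 6.91) and EDEM3 (6.51 against 6.74), and high at DPYSL5 (3.90 against 3.32), which was no member. At GINS3, dTAGV-1 replicate 9 was low (0.81 against 2.10). dTAGV-1 replicate 9 was the lowest of the 6 treated libraries in 190 members. The strongest 10% of windows took 31.8% of the counts of control replicate 12, against 45.8% in the next library. It was not among the libraries that chose the members.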

How the results depend on the processing

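The count of 515 members stayed between 448 and 502 with any 1 of the 12 libraries left out, and 411 members were called in each of those 12 fits. DESeq2, RLE scaling, library totals, no filter, promoter distances of 200 and 1000 bp and coding starts only gave counts within 1.5 times of 515. With all 16 libraries, which adds the flat replicates 11 and 12, edgeR called 214 promoter windows lower, 212 of them members. With the replicate block 637 were called, all 515 members among them. Same-numbered libraries correlated at 0.03 to 0.27, not all above 0.1, and 5 of 6 control libraries correlated best with their own number, a hint from the data and not the design. In replicate 12 alone 288 members were negative against 490 in both replicates. Members with the core were 9.32% within 50 bp, 19.2% in the whole window and 18.4% with the looser CCCANNATG. Members with the 2-part site were 37.3% within 50 bp, 54.2% in the whole window and 81.7% with 1 letter different, alternatives chosen after seeing the data. Over named windows 918 alternative values were compared, and none had the opposite sign where the main or the alternative fit called the window. Signs at windows called in neither fit were not counted. The call was lost in 67, over 19 windows, and gained in 12. Of 50 named members, 44 were called with any 1 library left out and 31 with all 16. The median standard error of the log2 fold change, which limits what small changes can be seen, was 0.089 in members (median level 4.55 log2 CPM) and 0.14 in other promoter windows (3.01); sequencing depth was not varied.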
